A study of Mus musculus with 6 samples.

Results

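The mitochondrial genome transcripts of mouse neural progenitor cells (NPCs) were taken as all rows whose gene symbol starts with mt-, which gave 37 of the 51733 symbols counted. They comprised 2 rRNAs, 13 mRNAs and 22 tRNAs. NPCs were sorted for Sox2-eGFP, a reporter under the control of the neural stem cell gene Sox2, from neural tubes of C57BL/6 mouse embryos at E13.5 (embryonic day). The 3 control libraries came from embryos with wild-type Ybx1 and the 3 Ybx1-KO libraries from embryos without it. Ybx1 encodes a protein that binds RNA and DNA. The null allele, Ybx1tm1Ley, is constitutive, so it is not confined to NPCs, and any effect of other tissues on the NPCs is part of the comparison. Libraries are numbered 1 to 3 within each group. The labels give no number of embryos per library and do not explain the numbers in the sample titles, of which controls 1 and 2 share the first, as do Ybx1-KO 1 and 2. The p-values therefore rest on the spread between these libraries, part of which may be technical, and on a dispersion fitted across genes.

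The mammalian mitochondrial genome is a small circle without introns. Both strands are copied into long transcripts that run through rRNA, mRNA and tRNA genes, and most mRNAs and rRNAs are released when the tRNAs between them are cut out. The rRNAs build the mitochondrial ribosome, and the mRNAs encode subunits of the respiratory chain and of ATP synthase. Nearly all of the mRNAs and both rRNAs lie on one strand, here the plus strand, while mt-Nd6 and several tRNAs lie on the other. Stretches of the mitochondrial genome have also been copied into nuclear chromosomes, and reads that match such a copy equally well cannot be placed at one position.

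The libraries held 20841990 to 23883542 counts on genes in control and 4743279 to 13321952 in Ybx1-KO. Ybx1-KO 3 stood apart. Only 7.22% of its read pairs were counted on genes, against 18.0% to 24.7% elsewhere, and 1729 olfactory, vomeronasal and taste receptor genes, which are silent in this tissue, summed to 4554 CPM (counts scaled to a common library total) in it against 22.5 to 95.9 in the others. Ybx1 itself stood at 239, 531 and 306 CPM in control and at 126, 55.3 and 9.66 in Ybx1-KO, in CPM scaled by trimmed mean of M values (TMM). The groups did not overlap, with a log2 fold change of -2.49 ± 0.68 (SE, edgeR quasi-likelihood test, adjusted p = 0.301), and it passed with DESeq2 (-2.44, adjusted p = 0.0236). A two-sided exact permutation test gave p = 0.1, the smallest that 3 against 3 libraries allow. Sox2 was counted in all 6 libraries at 17.5 to 44.1 CPM, and all 10 neural progenitor markers were detected in each.

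Sequence sharing with the nuclear genome was examined first, because it bears on which mRNAs could be counted. For each member of at least 100 bases, the share of its 100-base windows found without a mismatch in another GENCODE M21 transcript was computed. On build GRCm38, 7 annotated unprocessed pseudogenes on the minus strand of chr1:24611535-24616197, a span of 4663 bases, follow the mitochondrial order from the end of mt-Co1 to mt-Nd4. The start of mt-Co2 (chrM:7013-7696, plus strand) is shown with the same stretch of the chromosome 1 copy Gm28661 and of the chromosome 2 copy Gm13341, because the former cannot be told from the mitochondrial gene and the latter can. Capitals mark bases that differ from mt-Co2.
mt-Co2: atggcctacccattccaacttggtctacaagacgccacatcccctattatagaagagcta
Gm28661: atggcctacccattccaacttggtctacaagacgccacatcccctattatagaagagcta
Gm13341: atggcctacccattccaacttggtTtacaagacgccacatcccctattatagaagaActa

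Gm28661 matched mt-Co2 in all of its 681 bases. The copies of mt-Atp6 (Gm10925), mt-Co3 (Gm28437), mt-Nd4l (Gm10222) and the first 876 bases of mt-Nd4 (Gm28439) also had no difference. The copy of mt-Nd3 (chrM:9459-9806) had 1 difference in 345 bases, marked by a capital in both of the next sequences.
mt-Nd3: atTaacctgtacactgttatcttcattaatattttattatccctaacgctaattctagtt
Gm28438: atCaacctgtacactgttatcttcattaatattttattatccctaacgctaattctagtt

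For mt-Co1 (chrM:5328-6872), the full-length copy Gm13340 on chromosome 2 was 97.6% identical, and its start is shown because scattered differences of this kind left most of mt-Co1 distinct.
mt-Co1: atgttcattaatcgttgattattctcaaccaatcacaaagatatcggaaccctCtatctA
Gm13340: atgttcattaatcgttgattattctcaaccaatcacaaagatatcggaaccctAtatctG

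Windows shared with another transcript made up 99.5% of mt-Co2, 99.5% of mt-Atp6, 99.9% of mt-Co3, 97.6% of mt-Nd3 and 98.5% of mt-Nd4l. The shares were 60.8% for mt-Nd4, 30.8% for mt-Co1 and 3.19% for mt-Nd2. No window of mt-Nd1, mt-Nd5, mt-Nd6, mt-Cytb, mt-Rnr1 or mt-Rnr2 was shared. The 5 mRNAs with nearly all windows shared were the least counted ones together with mt-Atp8. They reached at most 27.6 FPKM (CPM divided by the gene's exon length in kilobases) in any library, while the other 7 mRNAs were at 197 FPKM or more in every library. mt-Atp8 had no shared window among annotated transcripts, but no transcript is annotated in the 233 bases between Gm10925 and Gm28661, and the stretch of the mitochondrial genome opposite this gap, chrM:7694-7926, also has 233 bases and holds most of mt-Atp8. Its last 43 bases are also the first of mt-Atp6 (chrM:7927-7969), shown here with the start codon of mt-Atp6 in capitals.
mt-Atp8 and mt-Atp6 overlap: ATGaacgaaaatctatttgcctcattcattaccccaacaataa

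**Figure D1:**
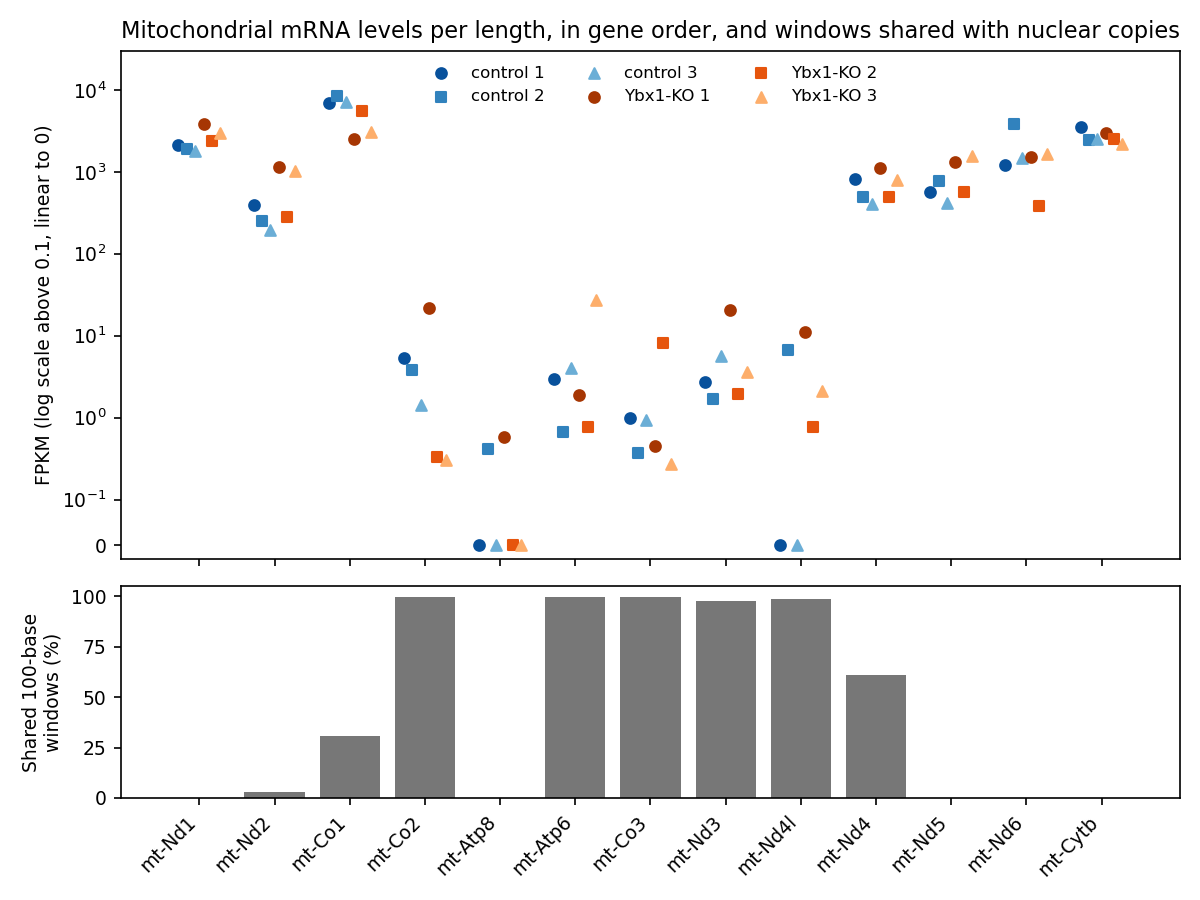
Upper panel, FPKM of each of the 13 mitochondrial mRNAs (log scale above 0.1) with 1 point per library, circles, squares and triangles being replicates 1 to 3 of control (blue) and Ybx1-KO (orange); lower panel, percent of each gene's 100-base windows found in another transcript. The 5 mRNAs with 97.6% or more of their windows shared, and mt-Atp8, lie at 27.6 FPKM or below in every library, and the other 7 at 197 or above.

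Read pairs without a unique alignment were tallied apart from genes and made up 20.1% to 35.6% of all pairs. The part of such pairs in the low counts of these mRNAs was not tested. The nuclear copies themselves received few counts, between 377 and 2662 per library for all 10 together, which is 0.00522% to 0.0148% of counts on genes. Gm28661, for example, had 82, 43 and 111 counts in control and 294, 7 and 29 in Ybx1-KO. The values below cover only pairs that were placed on the mitochondrial gene. This bears on the 5 mRNAs with nearly all windows shared, and on the shared parts of mt-Nd4, mt-Co1 and mt-Nd2.

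Mitochondrial genes took a smaller share of counts in Ybx1-KO than in control NPCs. They held 31.7%, 30.2% and 27.3% of counts on genes in control and 21.0%, 22.5% and 22.1% in Ybx1-KO. Every Ybx1-KO library was below every control, with means of 29.8% ± 2.22 and 21.9% ± 0.767 (SD, n = 3), a ratio of 0.735. Wilson 95% intervals were within 0.0374 percentage points of each share, and they cover counting error only, since the pairs carry no molecular identifiers. Without any 1 library, the log2 ratio of the means stayed between -0.40 and -0.50, against -0.44 with all. In bulk RNA, fewer mitochondria or less RNA in each cannot be told apart, nor can a lower share of mitochondrial RNA and a higher share of nuclear RNA.

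The size of this difference depended on what it was a share of. Over all read pairs tallied, mitochondrial genes held 7.41%, 7.46% and 6.50% in control and 4.55%, 4.05% and 1.60% in Ybx1-KO, a log2 ratio of -1.07. When the 20 most counted nuclear genes were left out of the total, the shares were 35.1%, 34.7% and 33.4% in control and 23.6%, 33.8% and 24.02% in Ybx1-KO, and the groups overlapped. In Ybx1-KO 2, the library that moved into the control range, those 20 genes took 33.5% of counts on genes, against 7.90% to 18.1% elsewhere.

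**Figure D2:**
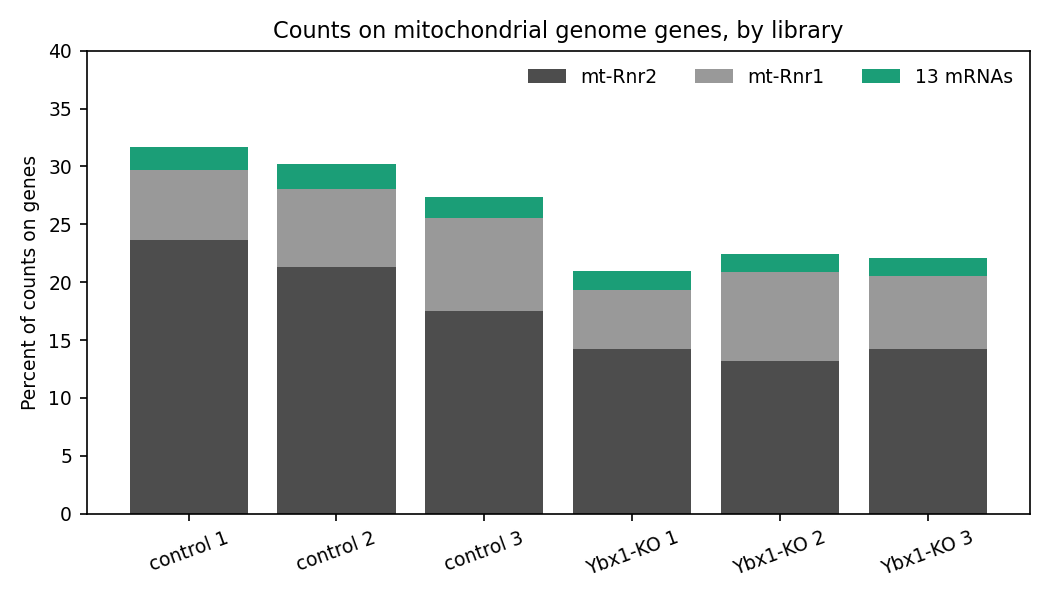
Percent of counts on genes (vertical axis) that fell on mt-Rnr2, mt-Rnr1 and the 13 mitochondrial mRNAs in each of the 6 libraries, stacked. The stack reaches 27.3% to 31.7% in control and 21.0% to 22.5% in Ybx1-KO, and most of the difference lies in mt-Rnr2.

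The rRNAs carried nearly all of these counts. mt-Rnr2 (chrM:1094-2675), the 16S rRNA of the large ribosomal subunit, held 23.6%, 21.3% and 17.5% of counts on genes in control. It held 14.2%, 13.1% and 14.2% in Ybx1-KO. All Ybx1-KO libraries were below all controls, with means of 20.8% ± 3.07 and 13.9% ± 0.610 (SD, n = 3). This difference of -6.97 percentage points made up most of the -7.89 for all mitochondrial genes. mt-Rnr1 (chrM:70-1024), the 12S rRNA of the small subunit, held 6.09%, 6.74% and 8.03% in control and 5.13%, 7.74% and 6.30% in Ybx1-KO. Its groups overlapped. The ratio of mt-Rnr2 to mt-Rnr1 was 3.88, 3.16 and 2.18 in control and 2.77, 1.70 and 2.26 in Ybx1-KO, and overlapped as well.

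In the test across all genes, mt-Rnr2 stood at 236200, 238061 and 192180 TMM-scaled CPM in control. In Ybx1-KO it stood at 136490, 181889 and 95831. The groups did not overlap, but the log2 fold change of -0.69 was smaller than its standard error of 1.37 (edgeR, adjusted p = 0.826, exact permutation p = 0.1). That error rests partly on a dispersion fitted across genes, and the tools differed for mt-Rnr2. The unadjusted p was 0.624 by edgeR, 0.198 by limma-voom (adjusted p = 0.618) and 0.0235 by DESeq2 (adjusted p = 0.233). DESeq2 put 13.2% of all genes below an unadjusted p of 0.05. mt-Rnr1 stood at 60902, 75310 and 88057 in control and 49337, 107093 and 42426 in Ybx1-KO, with Ybx1-KO 2 highest of all libraries and Ybx1-KO 3 lowest. This order belongs to the TMM scale, whose factors were 1.01, 0.902 and 0.919 in control and 1.04, 0.727 and 1.57 in Ybx1-KO. The factors enter every TMM-scaled value given here. As a share of counts on genes, mt-Rnr1 was instead highest in control 3 (8.03%) and lowest in Ybx1-KO 1 (5.13%). Its log2 fold change was -0.17 ± 1.13 (SE, adjusted p = 0.956), and 0.06 without Ybx1-KO 3. How far the rRNA depletion step of library preparation removed mitochondrial rRNA in each library was not tested.

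No mitochondrial gene was called at an adjusted p below 0.05 with a fold change above 1.5. Of the 37 members, 31 passed the filter on low values, a mean FPKM above 1 in either group. edgeR called 0 of the 31 higher and 0 lower, as it did among all 21330 genes tested (0% in each direction). limma-voom also called 0 of the 31, and 0 of all 21330. DESeq2 called 0 of the 31, against 1% of all genes. At an unadjusted p below 0.05, edgeR had 3 of the 31 higher, against 6.96% of all genes, and 0 lower, against 4.26%. limma-voom had 3 in either direction, against 7.76% of all genes, and DESeq2 had 8, against 13.2%. The fitted log2 fold changes were above 0 for 24 members and below 0 for 7, with a median of 0.95, while the median of all genes tested was 0.31 with 13069 above 0 and 8261 below. The median over members and the summed share thus had opposite signs. The median weighs every member alike, a tRNA of a few counts as much as mt-Rnr2. By class, 15 of 17 tRNAs and 9 of 12 mRNAs tested were above 0, with medians of 1.22 and 0.75, and 0 of 2 rRNAs. The mRNAs above 0 include the well-counted mt-Nd1, mt-Nd2, mt-Nd4 and mt-Nd5, and those below 0 were mt-Co1, mt-Cytb and mt-Nd6. Of the 31, mt-Co3, mt-Tr and mt-Ts2 passed the filter only through their mean in Ybx1-KO, where they were higher, and none only through control, so the counts over the 31 are a description.

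On the TMM scale, every Ybx1-KO library was above every control for 3 of the 31 members, against 4.99% of all genes. The 3 were mt-Tl1, mt-Tc and mt-Tr, the last of which had to be higher in Ybx1-KO to pass the filter. Every Ybx1-KO library was below every control for 1 member, mt-Rnr2, against 8.16% of all genes. As a share of counts on genes, mt-Nd1, mt-Tl1 and mt-Tr lay wholly above control, against 5.87% of all genes, and mt-Co1 and mt-Rnr2 wholly below, against 5.26%. mt-Rnr2 and mt-Tl1 kept their positions on both scales and when the libraries were scaled by their mitochondrial mRNA. With that scaling, 2.38% of all genes lay wholly below control and 11% wholly above. mt-Tr kept its position as well, but no conclusion is drawn from this, because it passed the filter only through Ybx1-KO. Controls had 0 or 1 count of it, and Ybx1-KO 2 and Ybx1-KO 3, with 1 count each, lay above them because these libraries held fewer counts.

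**Figure D3:**
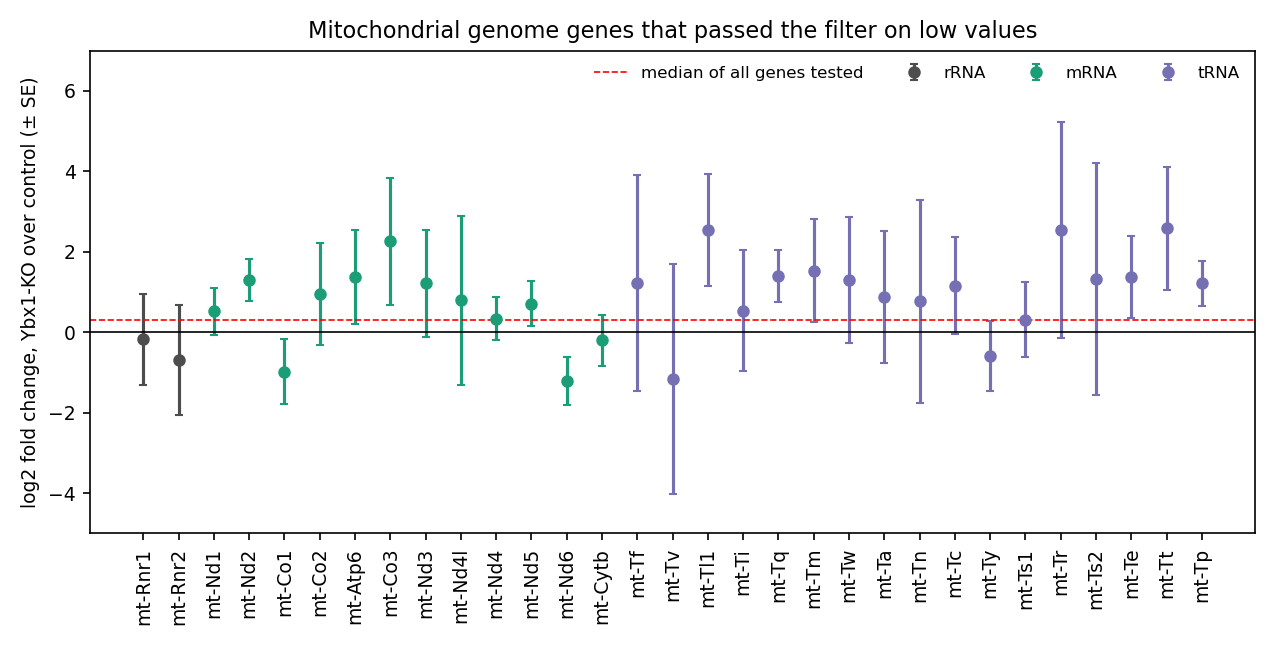
Fitted log2 fold change (Ybx1-KO over control, vertical axis) with its standard error from edgeR for the 31 mitochondrial genes that passed the filter, in gene order within rRNA, mRNA and tRNA; the dashed line is the median of all genes tested, 0.31. No gene was called, 24 points lie above 0 and 7 below, and the bars of most tRNAs cross 0.

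The 13 mRNAs together held 1.98%, 2.19% and 1.77% of counts on genes in control and 1.68%, 1.59% and 1.59% in Ybx1-KO. All Ybx1-KO libraries were below all controls, with a ratio of the means of 0.817. With mitochondrial rRNA left out of the total, the mRNA share was 2.82%, 3.05% and 2.38% in control and 2.09%, 2.01% and 2.00% in Ybx1-KO, again without overlap. The summed mRNA share thus stood apart with and without the rRNAs in the total, but it was led by mt-Co1. That gene held 10605, 13017 and 10843 CPM of counts on genes in control and 3862, 8573 and 4714 in Ybx1-KO. It was the only mRNA wholly below control on this scale, while mt-Nd1 lay wholly above. Of the 12 mRNAs tested, 9 had fitted log2 fold changes above 0.

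mt-Co1, the catalytic subunit of cytochrome c oxidase (complex IV), was the most counted mRNA in every library. It stood at 10603, 14550 and 11885 TMM-scaled CPM in control and at 3715, 11860 and 3177 in Ybx1-KO. Ybx1-KO 2 lay within the control range and the other two Ybx1-KO libraries far below it, with a log2 fold change of -0.98 ± 0.81 (SE, edgeR, adjusted p = 0.566). Per length, mt-Co1 was at 6864, 8425 and 7018 FPKM in control and at 2500, 5549 and 3051 in Ybx1-KO. It was the highest mRNA in all libraries but Ybx1-KO 1, where mt-Nd1 came first with 3797 FPKM. mt-Co1 made up 53.4%, 59.3% and 61.1% of mitochondrial mRNA counts in control and 22.9%, 53.9% and 29.7% in Ybx1-KO.

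mt-Cytb, the cytochrome b of complex III, overlapped between the groups. It stood at 3975, 3106 and 3190 TMM-scaled CPM in control and 3311, 3956 and 1670 in Ybx1-KO, with a log2 fold change of -0.20 ± 0.63 (SE, edgeR, adjusted p = 0.897) whose sign turned without Ybx1-KO 3 (0.10). The ratio of mt-Co1 to mt-Cytb was 2.67, 4.68 and 3.73 in control and 1.12, 3.00 and 1.90 in Ybx1-KO, where only control 1 fell below the highest Ybx1-KO library.

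The mRNAs of complex I, the NADH dehydrogenase, had fitted log2 fold changes above 0, apart from mt-Nd6, and none passed the test. mt-Nd1 (chrM:2751-3707), which directly follows mt-Rnr2 and the tRNA mt-Tl1 in the genome, stood at 2057, 2012 and 1877 TMM-scaled CPM in control and at 3495, 3138 and 1906 in Ybx1-KO. The lowest Ybx1-KO library lay within the control range on this scale, and the log2 fold change was 0.52 ± 0.59 (SE, edgeR, adjusted p = 0.683). As a share of mitochondrial mRNA counts, mt-Nd1 was at 10.4%, 8.20% and 9.65% in control and at 21.6%, 14.3% and 17.8% in Ybx1-KO, without overlap but short of the threshold (adjusted p = 0.350 by edgeR with libraries scaled by mitochondrial mRNA). On that scale 4 of the 31 members lay wholly above control, against 11% of all genes: mt-Nd1, mt-Nd5, mt-Tl1 and mt-Tr. Among them, mt-Tr had to be higher in Ybx1-KO to pass the filter.

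mt-Nd2 had the smallest p among the members. It stood at 403, 293 and 224 TMM-scaled CPM in control and at 1145, 399 and 723 in Ybx1-KO, where the lowest value lay just under that of control 1. Its log2 fold change was 1.30 ± 0.52 (SE, edgeR, adjusted p = 0.439), and it passed without Ybx1-KO 2 (1.71, adjusted p = 0.0461), a fit that called 3% of all genes higher and 0.887% lower. mt-Nd5 stood at 1047, 1552 and 828 in control and at 2280, 1412 and 1908 in Ybx1-KO, with a log2 fold change of 0.71 ± 0.55 (SE, adjusted p = 0.545). mt-Nd4, of which the first part is copied on chromosome 1, stood at 1124, 767 and 604 in control and at 1474, 939 and 743 in Ybx1-KO, for a fitted log2 difference of 0.34 ± 0.53 (SE, adjusted p = 0.770). Both genes overlapped between the groups. All 7 complex I mRNAs summed to 0.526%, 0.614% and 0.399% of counts on genes in control and to 0.952%, 0.445% and 0.869% in Ybx1-KO, so that Ybx1-KO 2 lay among the controls and the other two above them.

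mt-Nd6 (chrM:13552-14070, minus strand) is the mRNA encoded on the opposite strand, and overlaps the end of mt-Nd5 by 14 bases. It stood at 623, 2240 and 838 TMM-scaled CPM in control and at 754, 272 and 573 in Ybx1-KO. Control 2 was far above the other controls, and Ybx1-KO 1 lay between controls 1 and 3. The log2 fold change was -1.21 ± 0.61 (SE, edgeR, adjusted p = 0.450). Relative to mt-Nd5 on the other strand, mt-Nd6 was at 0.595, 1.44 and 1.01 in control and at 0.331, 0.193 and 0.300 in Ybx1-KO. This ratio, which was not planned and got no test, did not overlap between the groups. Its mean in Ybx1-KO was 0.270 of that in control. The strand setting of the counting is not given in the sources used here. If strand was not used, reads from the opposite transcript of the same region would count toward either gene.

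The 5 mRNAs with nearly all windows shared, and mt-Atp8, were too thinly counted to compare. mt-Co2 had 76, 62 and 21 counts in control and 126, 3 and 1 in Ybx1-KO, so that 1 library set its fold change. mt-Atp6 had 42, 11 and 60 counts in control and 11, 7 and 89 in Ybx1-KO. mt-Co3 had 16, 7 and 16 counts in control and 3, 84 and 1 in Ybx1-KO. Each of these 3 mRNAs was highest in another Ybx1-KO library. mt-Nd3 had 20, 14 and 42 counts in control and 61, 9 and 6 in Ybx1-KO, and mt-Nd4l had 0, 48 and 0 in control and 28, 3 and 3 in Ybx1-KO. mt-Atp8, with 2 counts in control 2, 1 in Ybx1-KO 1 and 0 in the rest, did not pass the filter. The fitted log2 fold changes of the 5 that passed ran from 0.79 for mt-Nd4l to 2.26 for mt-Co3, and those of mt-Co2, mt-Nd3 and mt-Nd4l turned negative without Ybx1-KO 1, as did that of mt-Atp6 without Ybx1-KO 3.

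The ratio of mRNA to rRNA asks whether both classes moved together, and it is free of the scaling of the libraries. All 13 mRNAs over both rRNAs gave 0.0668, 0.0783 and 0.0694 in control and 0.0872, 0.0761 and 0.0775 in Ybx1-KO. The groups overlapped, with means of 0.0715 ± 0.00602 and 0.0803 ± 0.00604 (SD, n = 3). Against mt-Rnr2 alone, the ratio was 0.0840, 0.103 and 0.101 in control and 0.119, 0.121 and 0.112 in Ybx1-KO, without overlap. Against mt-Rnr1 alone the direction turned, with 0.326, 0.326 and 0.221 in control and 0.328, 0.205 and 0.253 in Ybx1-KO, and the groups overlapped.

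A wider gap appeared without the mRNAs from mt-Co1 to mt-Nd4, the stretch copied on chromosome 1. The remaining 5 mRNAs, mt-Nd1, mt-Nd2, mt-Nd5, mt-Nd6 and mt-Cytb, gave 0.0273, 0.0294 and 0.0248 over both rRNAs in control and 0.0591, 0.0318 and 0.0490 in Ybx1-KO. The ratio was higher in every Ybx1-KO library, 1.72 times on average. Leaving out mt-Co1 alone gave nearly the same, with 12 mRNAs at 0.0311, 0.0318 and 0.0270 of rRNA in control and 0.0672, 0.0350 and 0.0545 in Ybx1-KO.

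All ratios between single genes, here and above, were outside the plan and got no test. Those that follow, chosen after their values were seen, set mt-Nd1 against mt-Rnr2 and mt-Co1. mt-Nd1 over mt-Rnr2 was 0.00871, 0.00845 and 0.00977 in control and 0.0256, 0.0173 and 0.0199 in Ybx1-KO, 2.33 times higher on average. mt-Nd1 over mt-Co1 was 0.194, 0.138 and 0.158 in control and 0.941, 0.265 and 0.5999 in Ybx1-KO, 3.68 times higher on average. Neither ratio overlapped between the groups, and neither could. As shares of counts on genes, mt-Nd1 lay wholly above control and mt-Rnr2 and mt-Co1 wholly below, so these gaps are no further result. The ratio of mt-Nd5 to mt-Nd1, by contrast, was 0.509, 0.771 and 0.441 in control and 0.652, 0.450 and 1.00 in Ybx1-KO, with overlap.

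**Figure D4:**
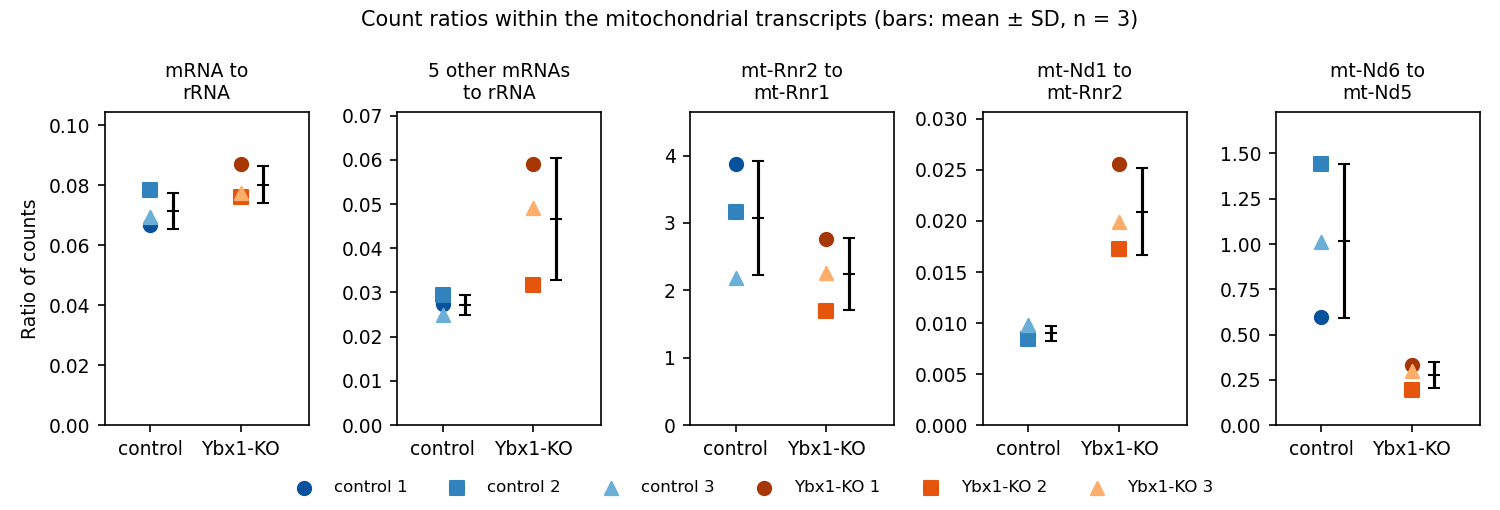
Count ratios (vertical axes, each from 0) in control (blue) and Ybx1-KO (orange), 1 point per library with mean ± SD at its right; "5 other mRNAs" are mt-Nd1, mt-Nd2, mt-Nd5, mt-Nd6 and mt-Cytb. The ratios of all mRNA to rRNA and of mt-Rnr2 to mt-Rnr1 overlap between the groups, while the other 3 do not. The 5 other mRNAs over rRNA and mt-Nd1 over mt-Rnr2 are higher in Ybx1-KO, and mt-Nd6 over mt-Nd5 is lower. The ratios between single genes were not planned, and the gap for mt-Nd1 over mt-Rnr2 follows from the shares of those genes.

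The tRNAs, which carry amino acids to the mitochondrial ribosome, were thinly counted. They ranged from no count in any library for some to 321 counts for mt-Tq in Ybx1-KO 3. Their genes span 59 to 75 bases, less than the 100 cycles of a read, and all 22 together had 886, 736 and 788 counts in control and 598, 313 and 946 in Ybx1-KO. That is 0.00425%, 0.00308% and 0.00365% of counts on genes in control and 0.00705%, 0.00235% and 0.0199% in Ybx1-KO, with overlap. The 8 tRNAs of the minus strand held most of these counts, 796, 646 and 693 in control and 497, 263 and 764 in Ybx1-KO. The 14 tRNAs of the plus strand, the strand of the rRNAs and all mRNAs but mt-Nd6, had 90, 90 and 95 counts in control and 101, 50 and 182 in Ybx1-KO. mt-Td, mt-Tk, mt-Tg and mt-Th had no count in any library, where 3 counts would be 0.126 to 0.632 CPM, mt-Tl2 had 1 count in Ybx1-KO 3 alone, and these 5 were not tested. The others passed the filter, some with only a few counts, because FPKM rises as a gene gets shorter.

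The sequences of the transcribed strand are shown for the tRNAs wholly higher in Ybx1-KO on the TMM scale, for the 2 with an unadjusted p below 0.05, and for 1 without counts, all without a base marked. mt-Tl1 (chrM:2676-2750) lies between mt-Rnr2 and mt-Nd1. mt-Tc (chrM:5192-5257), mt-Tq (chrM:3772-3842) and mt-Tp (chrM:15356-15422) are on the minus strand, and mt-Tr (chrM:9808-9875) and mt-Td (chrM:6942-7011) on the plus strand.
mt-Tl1: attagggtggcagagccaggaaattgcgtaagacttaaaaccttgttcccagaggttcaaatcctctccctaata
mt-Tc: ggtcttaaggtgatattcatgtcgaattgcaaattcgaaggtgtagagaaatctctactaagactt
mt-Tr: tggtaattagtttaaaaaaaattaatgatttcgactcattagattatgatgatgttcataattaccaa
mt-Tq: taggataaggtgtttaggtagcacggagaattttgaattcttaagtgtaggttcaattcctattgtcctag
mt-Tp: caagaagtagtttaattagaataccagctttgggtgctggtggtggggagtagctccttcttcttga
mt-Td: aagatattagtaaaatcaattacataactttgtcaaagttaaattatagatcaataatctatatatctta

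mt-Tq, the tRNA for glutamine, had 201, 137 and 127 counts in control and 68, 59 and 321 in Ybx1-KO. On the TMM scale this was 9.64, 6.41 and 6.45 CPM in control and 7.71, 6.13 and 45.6 in Ybx1-KO, so that only Ybx1-KO 3 left the range of the other libraries. Its log2 fold change of 1.40 ± 0.64 (SE, edgeR, adjusted p = 0.444) was -0.10 without Ybx1-KO 3, and it passed without Ybx1-KO 1 (1.65, adjusted p = 0.0225) or without Ybx1-KO 2 (2.00, adjusted p = 0.00592). The fit without Ybx1-KO 1 called 2.19% of all genes higher and 0.679% lower. mt-Tp, the tRNA for proline, stood at 5.18, 7.86 and 12.3 CPM in control and at 10.7, 11.0 and 37.2 in Ybx1-KO, with a log2 fold change of 1.21 ± 0.55 (SE, adjusted p = 0.444). It passed without Ybx1-KO 2 (1.66, adjusted p = 0.0396). Both tRNAs were highest in Ybx1-KO 3, the library with the receptor gene counts given above, and so were mt-Tt, with 68 counts there against 2 to 15 elsewhere, and mt-Te, with 93 against 12 to 58. On the TMM scale mt-Tf, mt-Ti, mt-Tm, mt-Tw, mt-Ta and mt-Ts2 were also highest in Ybx1-KO 3. The remaining tested tRNAs, mt-Tv, mt-Tl1, mt-Tn, mt-Tc, mt-Ty, mt-Ts1 and mt-Tr, were highest in another library. The part of that library's background in these counts was not tested.

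mt-Tl1, a tRNA for leucine, had 4, 17 and 13 counts in control and 55, 15 and 14 in Ybx1-KO, or 0.192, 0.796 and 0.660 TMM-scaled CPM against 6.24, 1.56 and 1.99. Its log2 fold change was 2.55 ± 1.39 (SE, edgeR, adjusted p = 0.451), without overlap. mt-Tc, for cysteine, had 26, 23 and 32 counts in control and 42, 16 and 17 in Ybx1-KO, and mt-Tr, for arginine, had 0 or 1 in each control and 4, 1 and 1 in Ybx1-KO. mt-Tc overlapped between the groups as a share of counts on genes. mt-Ts1, a tRNA for serine encoded opposite the end of mt-Co1, had 250, 139 and 139 counts in control and 265, 8 and 6 in Ybx1-KO. Ybx1-KO 1 was thus the highest TMM-scaled value of the 6 libraries and the others the lowest, and mt-Ts1 was called lower without Ybx1-KO 1 (log2 fold change -3.40, adjusted p = 0.00857) but had 0.31 ± 0.94 (SE, adjusted p = 0.890) with it. mt-Ty, for tyrosine, had 152, 104 and 93 counts in control and 4, 53 and 37 in Ybx1-KO, with a log2 fold change of -0.59 ± 0.88 (SE, adjusted p = 0.759).

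**Figure D5:**
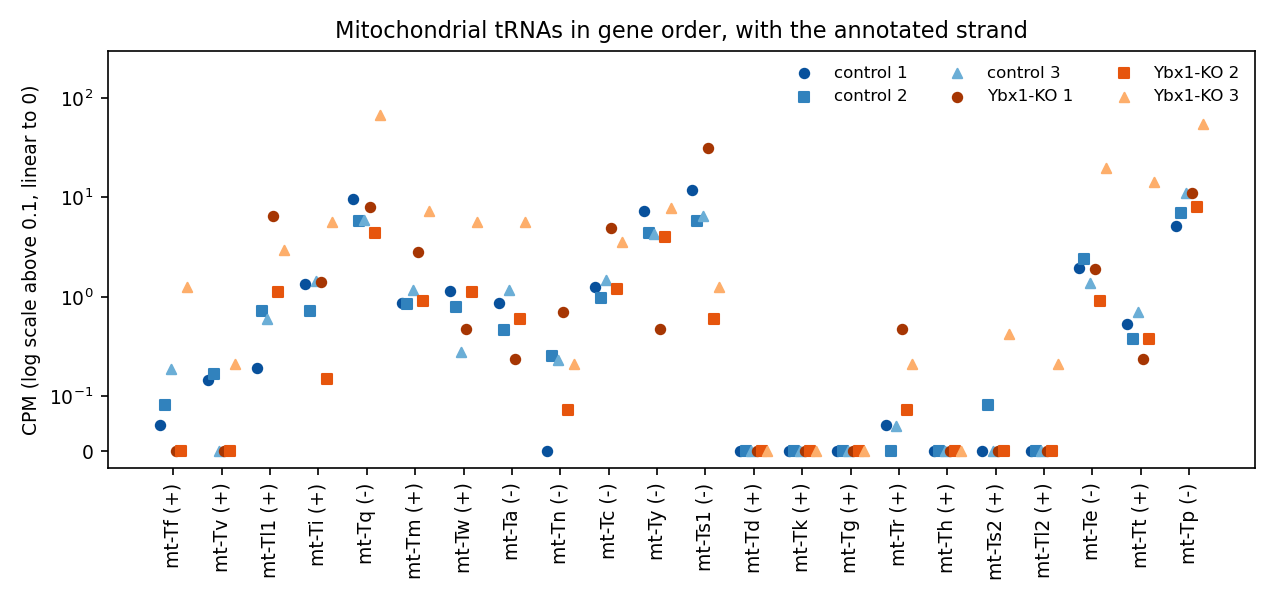
CPM of counts on genes (log scale above 0.1, linear to 0) of the 22 mitochondrial tRNAs in gene order, with the strand in parentheses and 1 point per library (controls blue, Ybx1-KO orange). mt-Tq, mt-Tp, mt-Ts1 and mt-Ty of the minus strand are the most counted, and 4 tRNAs are at 0 in all libraries. The Ybx1-KO 3 triangle is the highest point for mt-Tq, mt-Te, mt-Tt and mt-Tp, among others.

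Nuclear genes that copy, process and maintain the mitochondrial genome were examined beside it, as a list of 51 genes of which 50 were in the tables and 49 passed the filter. edgeR called 0 of the 49, as did limma-voom and DESeq2. Of all genes tested, edgeR and limma-voom called 0 and DESeq2 called 1%. At an unadjusted p below 0.05, 3 were higher (6.96% of all genes) and 2 lower (4.26%), and the log2 fold changes split into 25 above 0 and 24 below, with a median of 0.02 against 0.31 for all genes. The genes that start transcription had log2 fold changes of -0.12 ± 0.57 (SE, adjusted p = 0.936) for Polrmt, the mitochondrial RNA polymerase, -0.22 for Tfam, which packages the genome and starts transcription, and 0.02 for Tfb2m. Tefm, the elongation factor, stood at 9.31, 10.1 and 14.2 CPM in control and 2.95, 8.20 and 7.10 in Ybx1-KO, wholly lower, with a log2 fold change of -0.88 ± 0.56 (SE, adjusted p = 0.487).

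Among the factors that stabilise or degrade mitochondrial mRNA, the log2 fold changes were 0.45 for Lrpprc, 0.09 for its partner Slirp, -0.39 for the poly(A) polymerase Mtpap and -0.84 for the exonuclease Pnpt1, all with overlap. The enzymes that cut out the tRNAs had -0.05 for Elac2, at the 3′ end, and -0.77 for Trmt10c, of the 5′ enzyme. Trmt10c stood at 19.9, 21.9 and 26.3 CPM in control and 8.84, 16.1 and 14.9 in Ybx1-KO, without overlap (SE 0.41, adjusted p = 0.450). For replication, Polg, the DNA polymerase, had -0.28 and the helicase Twnk 0.50, the latter wholly higher. In all, 3 of the 49 (Mto1, Twnk and Tk2) lay wholly above control, against 4.99% of all genes, and 6 (Tefm, Mterf2, Mterf3, Trmt10c, Angel2 and Nsun3) wholly below, against 8.16%. Names beyond the roles above were chosen after their values were seen.

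Markers of other cell types were counted in both groups. Neuron markers, all 8 detected in each library, summed to 3016 to 4004 CPM of counts on genes in control and 1822 to 3371 in Ybx1-KO, and progenitor markers to 1369 to 1562 and 1209 to 2102. The 9 erythroid genes summed to 477 to 1219 in control and 302 to 1283 in Ybx1-KO. The 6 mesenchymal genes summed to 116 to 877 in control and 86.6 to 113 in Ybx1-KO, and these ranges did not overlap. The 5 endothelial genes ranged from 17.7 to 46.7 in control and 10.1 to 60.3 in Ybx1-KO, and the 5 microglial genes from 8.04 to 30.9 and 3.77 to 51.9. No marker was at 0 in more than 1 library. The nuclear RNAs Malat1, Neat1, Meg3 and Kcnq1ot1 summed to 2017 to 8634 CPM in control and 3953 to 4898 in Ybx1-KO. The part of these differences in the mitochondrial shares was not tested.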

How the data were processed

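RNA-seq libraries of total RNA were compared between 3 control and 3 Ybx1-KO samples, grouped by the genotype in the labels. The authors aligned read pairs to mm10 (GRCm38.p5 per the submitters' notes), counted them per GENCODE gene with HTSeq 0.6.1p1 and deposited raw counts by gene symbol, without normalization. The aligner and strand setting are not given in the sources used here. The counter's tallies of pairs not on genes were left out of library sizes.

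Lengths and sequences came from GENCODE M21 (GRCm38), and 47624 symbols matched directly, 359 through an older symbol and 3750 not. Genes whose mean FPKM exceeded 1 in at least 1 group were tested by edgeR 4.0.16 (quasi-likelihood, TMM, Benjamini-Hochberg over all genes tested) in R 4.3.3, called at adjusted p below 0.05 and fold above 1.5. limma 3.58.1, which the study used, and DESeq2 1.42.0, other scalings and filters, and each library left out were alternatives. Scripts were tested on simulated data. Sums and ratios over members got no test. SE was derived from the edgeR test, as the absolute log2 fold change divided by the square root of the quasi-likelihood F statistic. Totals on genes ran from 4743279 to 23883542, and no 2 libraries agreed within sampling noise.

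Named were all mitochondrial rRNAs and mRNAs, tRNAs that passed the filter or by counts, and nuclear factors by role. The members and lists were chosen with earlier results of these data known.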

Additional observations from a re-analysis of the deposited data

How the results depend on the processing

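No paired analysis was possible because the groups share no replicate number in the labels. Of the mitochondrial genes, 0 were called under every other tool, scaling and filter tried. Of all genes, these called 0, apart from DESeq2 (214 of 21330) and no filter (193 of 42828). Leaving out 1 library gave 0 to 3 mitochondrial genes called higher and 0 to 1 called lower. Without Ybx1-KO 1 these were mt-Tq (higher, with 2.19% of all genes) and mt-Ts1 (lower, with 0.679%), and without Ybx1-KO 2 mt-Tq, mt-Nd2 and mt-Tp (higher, with 3%). With the genes held to those tested in the fit of all 6 libraries, a choice made after seeing the data, 0 mitochondrial genes were called. The share of all genes called in those fits was not computed, so no conclusion is drawn from this count. Nuclear factors called ran from 0 to 2, all higher. They were Nsun4 without Ybx1-KO 1 (with 2.19% of all genes), and Nsun4 and Esrra without Ybx1-KO 2 (with 3%). With the genes held as above, Nsun4 was still called without Ybx1-KO 1 and Esrra without Ybx1-KO 2. Ybx1 passed the threshold with DESeq2 (-2.44), with no filter (-2.52), without Ybx1-KO 1 (-3.49) and without Ybx1-KO 2 (-2.34). It did not pass without any of the other libraries, and its log2 fold change ran from -3.49 to -1.95 as libraries were left out. The log2 ratio of the mitochondrial share was -1.07 over all pairs and -0.34 without the 20 most counted nuclear genes. That of mRNA to rRNA was 0.29 over mt-Rnr2, -0.15 over mt-Rnr1 and 0.78 without the copied stretch.

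Signs turned for members with no call. Scaling by mitochondrial mRNA gave mt-Rnr1 0.15 and mt-Cytb 0.14, and limma-voom gave mt-Ti -0.20, mt-Ts1 -1.46 and mt-Co2 -1.10. As each library was left out in turn, the log2 fold changes ran from -0.59 to 0.063 for mt-Rnr1, from -0.37 to 0.096 for mt-Cytb, from -0.048 to 0.62 for mt-Nd4, from -3.47 to 1.57 for mt-Co2, from -0.90 to 2.06 for mt-Atp6, from -0.55 to 1.84 for mt-Nd3 and from -1.10 to 7.12 for mt-Nd4l. Among tRNAs they ran from -3.98 to 2.00 for mt-Tf, -0.63 to 1.21 for mt-Ti, -0.099 to 2.00 for mt-Tq, -0.73 to 1.37 for mt-Ta, -0.60 to 1.25 for mt-Tn, -3.40 to 0.90 for mt-Ts1, -0.41 to 2.04 for mt-Te and -0.60 to 3.29 for mt-Tt. The sign turned without Ybx1-KO 1 for mt-Nd4, mt-Co2, mt-Nd3, mt-Nd4l, mt-Tn and mt-Ts1, and without Ybx1-KO 3 for the others. The causes were not tested. The median log2 fold change of all genes tested was 0.31, and 0.51 with total count scaling and 0.79 with mitochondrial mRNA scaling. The biological coefficient of variation was 0.80, and without Ybx1-KO 3, the library with the fewest counts, edgeR still called 0 of 15185 genes.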
